A study of Mus musculus with 6 samples.

Results

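The E2F and DP genes encode the paired transcription factors that the retinoblastoma pathway controls, and the rule took every probe set on the array whose single annotated symbol was E2f1 to E2f8, Tfdp1 or Tfdp2. That gave 21 of the 45037 probe sets, for 10 of 18193 named genes. The transcripts were measured in V720, a mouse breast cancer cell line labelled as mammary epithelium. One group of cells received 1 µM PD0332991 (palbociclib, an inhibitor of the kinases CDK4 and CDK6) for 24 h and the other received vehicle for the same time, with 3 samples in each group and 1 Affymetrix array a sample. All cells came from this 1 line, grown in serum, and no genotype or allele was given for it. The series text calls the samples biological triplicates without saying what was repeated, so the p-values reflect only how far these 3 samples a group differ among themselves, and that spread may be technical.

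E2F proteins bind DNA as dimers with a DP protein and switch genes of DNA synthesis and cell division on or off. In resting cells the retinoblastoma protein and its relatives p107 and p130 hold E2Fs in a repressing state. Cyclin D with CDK4 or CDK6, then cyclin E with CDK2, phosphorylates these pocket proteins and frees the E2Fs. E2F1, E2F2 and E2F3 are classed as activators, E2F4 and E2F5 as repressors that work with p107 and p130, and E2F6 as a repressor that works with polycomb proteins and does not bind pocket proteins. E2F7 and E2F8 are atypical repressors that bind DNA without DP, and their genes are themselves E2F targets.

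By the brightest probe set of each gene, the atypical repressors fell most. E2f7 fell 3.86-fold and E2f8 fell 3.54-fold with PD0332991, while no probe set of E2f3, E2f4, E2f5 or E2f6 passed the test. E2f1 and E2f2 each had 1 probe set that fell and another, brighter one that did not pass the test. Over all probe sets the order of E2f2 and E2f8 depends on the pseudocount: the log2 fold change of E2f2 1455790_at was -1.40 against -1.83 for E2f8 1436186_at with 16 added to each intensity, and -1.91 against -1.90 with 1 added. Tfdp1 fell 1.25-fold. Of the 21 probe sets, 6 were lower and 0 were higher at an adjusted p under 0.05 by limma. Over the whole array 14.2% of probe sets passed that threshold, 8.19% lower and 6.00% higher. At an unadjusted p under 0.05, 7 of the 21 were lower and 1 was higher. The median log2 fold change of the 21 was -0.10, against -0.01 for all probe sets. The 2 groups of arrays did not overlap in 8 of the 21, against 34.1% of all probe sets. Taking 1 probe set a gene, the brightest, 3 of 10 genes were lower (E2f7, E2f8 and Tfdp1) and 0 higher. Over all genes taken the same way 16.8% passed, 9.05% lower and 7.80% higher. At an unadjusted p the family counts by the brightest probe set were also 3 and 0, and the groups did not overlap in 3 of the 10, against 38.9% of all genes.

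A value here is the intensity of a probe set, on the linear scale the authors deposited, and different probe sets cannot be compared in level. Fold changes are of log2(intensity + 16), which understates the change of dim probe sets. The median intensity of an array was 69.6 to 71.1 with PD0332991 and 71.3 to 72.7 with vehicle, so a shift in the RNA content of the cells as a whole is hidden. With each array centred on its 9 spike-in probe sets, the median log2 change of all probe sets was -0.13. It was -0.06 when vehicle replicate 1, the array with the lowest spike-in mean, was also left out. On the log2 scale that mean was 9.74, against 9.94 to 10.05 on the other arrays. Within either form, this centring moves the log2 fold change of every probe set by the same amount. The step at which these controls were added was not analysed here, so this centring cannot be read as RNA per cell. Higher calls made up 42.3% of all calls, but 11.2% (379 of 3379) with spike-in centring. Of the 14 epithelial markers 10 were above the array's median probe set, among them Epcam, Krt8 and Krt18, while Krt19 was near 1 unit of intensity in both groups. Of the 14, Cldn4 and Krt7 were called higher (log2 fold changes 0.62 and 0.20) and Elf5 and Elf3 lower (-0.37 and -0.40). The summed level of 13 leukocyte markers was 768 to 817 with PD0332991 and 632 to 718 with vehicle. Of these 13, 2 were called higher: Cd68 (means 308 with PD0332991 and 230 with vehicle) and the dim Ptprc (18.2 and 11.6). Adgre1 (126 and 105) and Csf1r (120 and 116) were above the array's median probe set but not called. Cd3e, Cd4 and Cd79a stood at or below 4.4 units on average in each group. The T cell markers Cd3g and Cd8a had means of 6.12 and 125 with PD0332991 and 4.85 and 118 with vehicle. Of 10 fibroblast markers 1 was called lower (Pdgfra, -0.52). Postn, not called, had means of 2084 with PD0332991 and 2204 with vehicle. Of 8 endothelial markers 1 was called lower (Emcn, -0.43). Of 6 adipocyte markers 0 were called in either direction by limma, also at an unadjusted p under 0.05. Among all genes 16.8% were called. The part of other cells in the results was not tested. In such bulk samples, fewer cells in a phase of the cycle and less RNA per cell cannot be told apart.

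**Figure D1:**
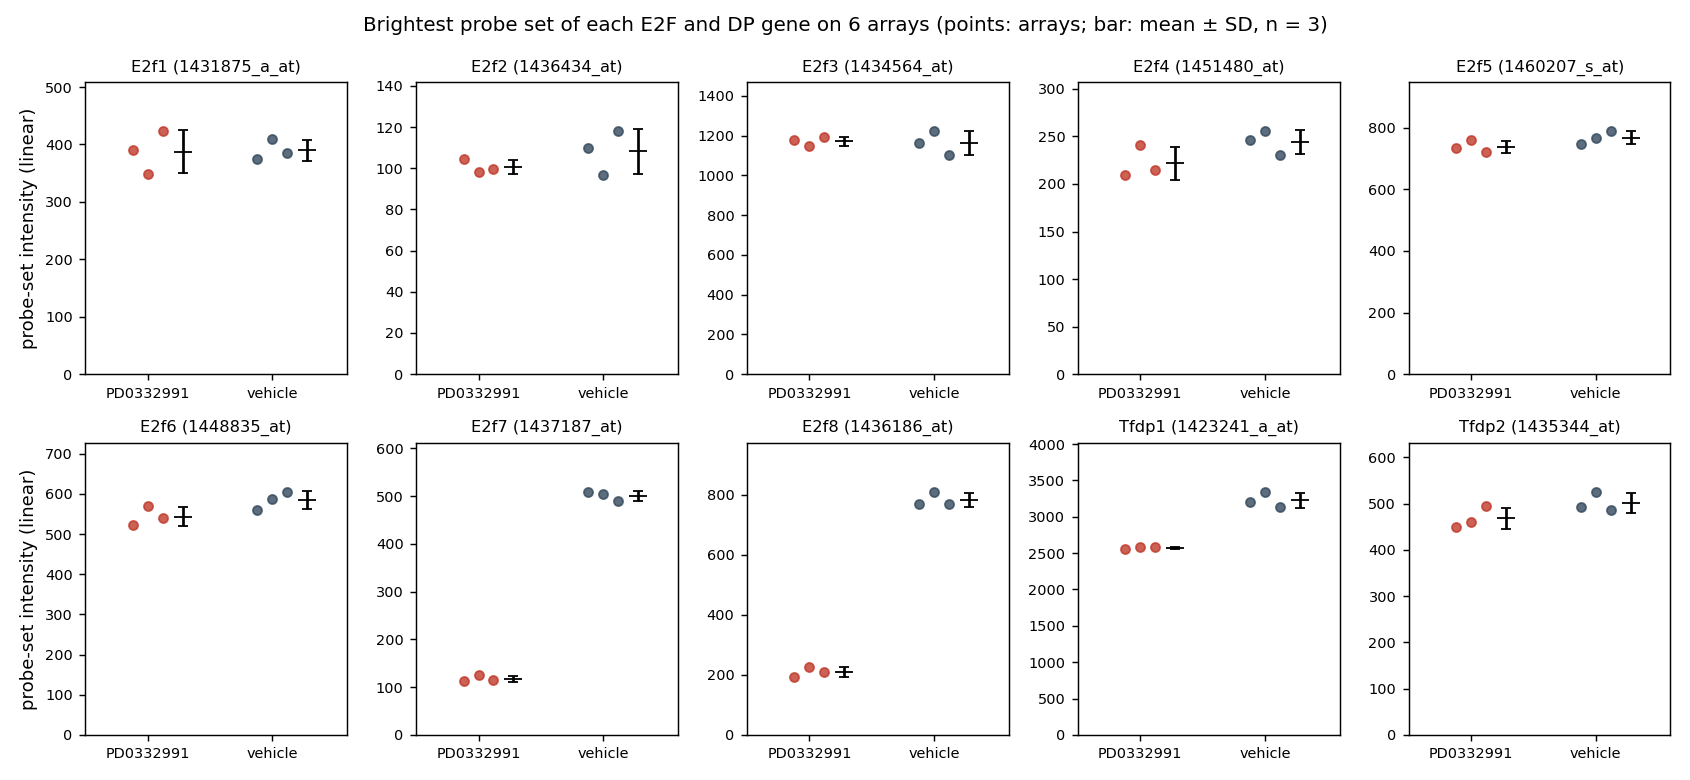
Intensity (linear, each panel from 0) of the brightest probe set of each E2F and DP gene on the 3 PD0332991 arrays (left, red) and the 3 vehicle arrays (right, dark), with mean and SD. E2f7 and E2f8 stand apart between groups by a wide gap, Tfdp1 by a narrow one, and the other 7 genes overlap.

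E2f7 was measured by 1 probe set, 1437187_at. Its intensity was 113, 125 and 116 on the 3 PD0332991 arrays, against 509, 504 and 489 on the 3 vehicle arrays. Every PD0332991 array lay under every vehicle array, with a gap many times the spread within either group. The log2 fold change was -1.95 (SE 0.05, 95% interval -2.07 to -1.83, limma adjusted p = 8.97e-05). It stayed between -2.08 and -1.64 in all 20 alternative analyses, each past its threshold.

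E2f8 was measured by a bright and a dim probe set. On the bright one, 1436186_at, the intensity was 193, 226 and 211 with PD0332991, against 768, 811 and 770 with vehicle. The groups were as clearly apart as for E2f7, and the log2 fold change was -1.83 (SE 0.07, 95% interval -1.99 to -1.66, limma adjusted p = 9.07e-05). The other probe set, 1444319_at, read 8.73, 1.24 and 12.0 with PD0332991, against 7.23, 13.1 and 5.19 with vehicle, at a mean brightness that only 13.7% of probe sets fell below. At that brightness the groups overlapped, and the interval of its change, -0.60 to 0.43, was wide.

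The promoters of these genes are shown because E2F7 and E2F8 are known E2F targets. Each line gives the 250 bases before the RefSeq start site (GRCm38.p6), 5′ to 3′ along the gene. Capitals mark an E2F match, defined as TTTGGCGC, TTTCCCGC, TTTGCCGC or TTTCGCGC on either strand, or a match to TTTGAA on either strand, the letters of the CHR element found in promoters of mitotic genes.
E2f7, chr10:110745189-110745438, plus strand: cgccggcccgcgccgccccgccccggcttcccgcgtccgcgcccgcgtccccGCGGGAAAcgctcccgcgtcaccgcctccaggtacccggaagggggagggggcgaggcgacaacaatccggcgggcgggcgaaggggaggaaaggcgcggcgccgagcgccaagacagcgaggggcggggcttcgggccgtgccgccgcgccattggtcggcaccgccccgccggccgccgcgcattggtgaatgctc
E2f8, chr7:48881597-48881846, minus strand: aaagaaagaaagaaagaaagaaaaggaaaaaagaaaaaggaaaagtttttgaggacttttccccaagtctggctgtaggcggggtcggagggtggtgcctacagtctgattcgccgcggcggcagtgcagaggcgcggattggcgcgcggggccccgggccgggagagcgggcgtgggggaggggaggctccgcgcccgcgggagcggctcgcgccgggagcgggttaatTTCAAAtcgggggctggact
The E2f7 window held GCGGGAAA, the reverse complement of TTTCCCGC, starting 198 bases before the start site. The E2f8 window held no E2F match and 1 CHR match, TTCAAA, 20 bases before the start site. Its start site lies 477 bases inside the gene as annotated, and the region around the outermost start was not analysed here. A match is a run of letters, not evidence of binding.

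Among the activators, E2f3, which encodes an activator with a full-length and a shorter form, did not pass the test on either probe set. Its main probe set, 1434564_at, read 1177, 1147 and 1193 with PD0332991, against 1162, 1224 and 1103 with vehicle. The groups overlapped throughout, and the 95% interval of the log2 fold change was -0.12 to 0.14. The second E2f3 probe set, 1427462_at, had 115 ± 6.53 with PD0332991 and 108 ± 12.4 with vehicle (SD, n = 3 each), with an interval from -0.13 to 0.29.

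E2f1, the first described E2F and also an inducer of apoptosis genes, gave different answers on different probe sets. The brightest, 1431875_a_at, read 391, 348 and 423 with PD0332991, against 374, 409 and 386 with vehicle. The PD0332991 arrays spanned the vehicle arrays, and the interval of the log2 fold change was -0.21 to 0.19. The next, 1417878_at, read 163, 143 and 145 with PD0332991, against 253, 251 and 267 with vehicle. Here all PD0332991 arrays were lower, by a log2 fold change of -0.72 (SE 0.06, limma adjusted p = 0.00157), a 1.64-fold lower level that stayed past the threshold in all 19 alternatives. The third, 1447840_x_at, of a type whose probes can match other transcripts, was dim at 12.7 ± 1.87 with PD0332991 and 15.7 ± 1.34 with vehicle (SD, n = 3 each) and did not pass the test.

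E2f2, an activator strongly tied to cell proliferation, was also split. On 1436434_at the intensity was 104, 98.0 and 99.4 with PD0332991, against 110, 96.7 and 118 with vehicle. These values overlapped, with an interval of -0.27 to 0.09 for the log2 fold change. On 1455790_at it was 22.4, 18.4 and 23.5 with PD0332991, against 68.8, 89.9 and 91.3 with vehicle. No PD0332991 array reached the lowest vehicle array there, and the log2 fold change was -1.40 (SE 0.11, 95% interval -1.67 to -1.13, limma adjusted p = 0.00117), past the threshold in all 19 alternatives. The size depended on the pseudocount because the probe set is dim, from -1.91 with a pseudocount of 1 to -0.78 with one of 64.

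Whether the probe sets of 1 gene changed by different amounts was tested directly, on the within-array difference between each probe set and the brightest of its gene, over all 16752 such pairs on the array. Of these pairs 3.29% differed at an adjusted p under 0.05, and of the 11 pairs in the family 3 did. The changes differed by -0.70 for E2f1 1417878_at (limma adjusted p = 0.0254) and by -1.31 for E2f2 1455790_at (limma adjusted p = 0.0140), each on the log2 scale and relative to the brightest probe set. The third pair was that of E2f8. Its dim probe set 1444319_at read under the added 16 units on every array, and its groups overlapped. This pair therefore says nothing about a disagreement (limma adjusted p = 0.435 with a pseudocount of 1). With a pseudocount of 1 the limma adjusted p was 0.0599 for the E2f1 pair and 0.0432 for the E2f2 pair. With the replicate number as a block it was 0.118 and 0.0955. The E2f1 and E2f2 differences kept their sign in every alternative. With any 1 array left out the limma adjusted p was 0.0586 to 0.0935 for E2f1 and 0.0426 to 0.0630 for E2f2. Leaving out an array reduced the array-wide count of such pairs from 551 to between 14 and 55. When all probe sets of a gene were averaged, E2f1 and E2f2 both came out lower, with log2 fold changes of -0.29 (limma adjusted p = 0.0145) and -0.75 (limma adjusted p = 0.00133), which makes 5 of 10 family genes lower. Which transcripts each probe set reads was not analysed here.

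**Figure D2:**
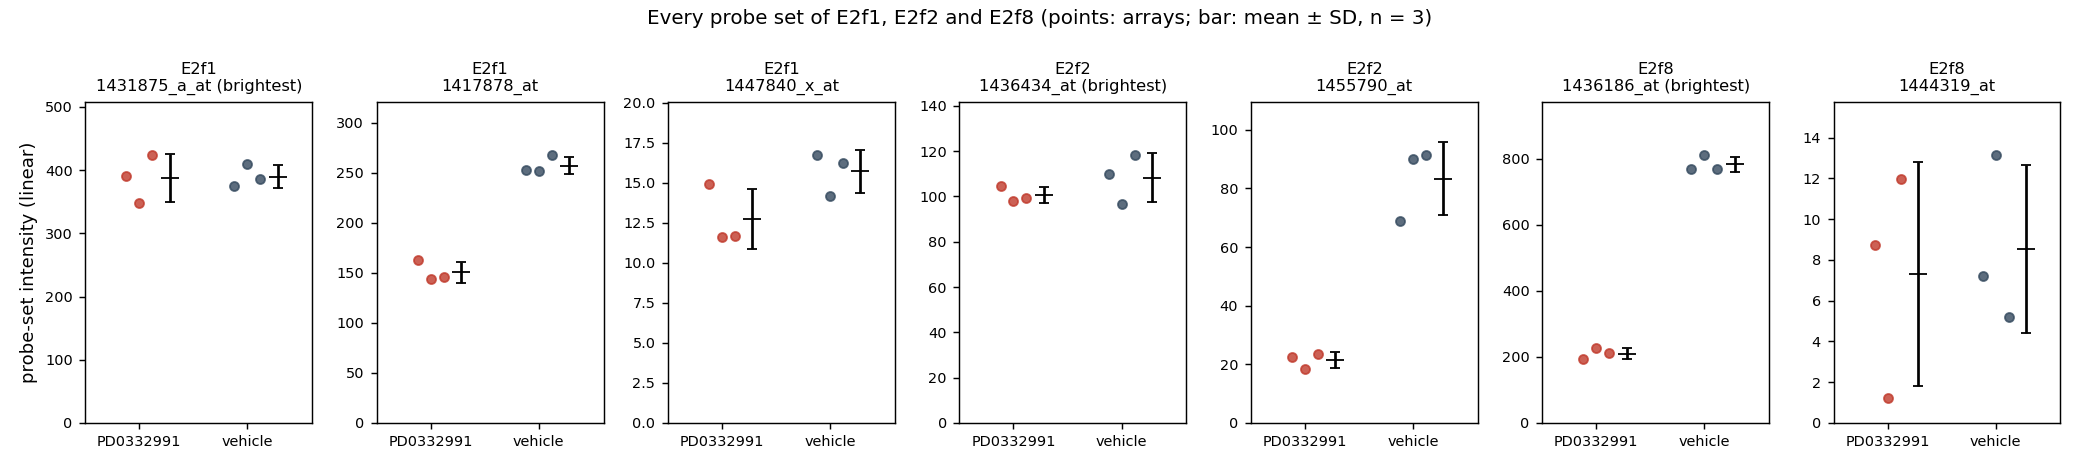
Intensity (linear, each panel from 0) of every probe set of E2f1, E2f2 and E2f8 on the PD0332991 arrays (left, red) and vehicle arrays (right, dark), with mean and SD. Within each gene 1 probe set separates the groups and another does not, and the one that does not is the brightest for E2f1 and E2f2 and a very dim one for E2f8.

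The E2f2 and E2f3 promoters both held an E2F match. They are shown as a pair because no E2f3 probe set passed the test and 1 E2f2 probe set fell. For E2f2 the match lies after the start site, so the 30 bases around it are given, and for E2f3 the 250 bases before the start site are given, with capitals as above.
E2f2, chr4:136172294-136172323, plus strand: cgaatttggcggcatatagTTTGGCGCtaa
E2f3, chr13:29986064-29986313, minus strand: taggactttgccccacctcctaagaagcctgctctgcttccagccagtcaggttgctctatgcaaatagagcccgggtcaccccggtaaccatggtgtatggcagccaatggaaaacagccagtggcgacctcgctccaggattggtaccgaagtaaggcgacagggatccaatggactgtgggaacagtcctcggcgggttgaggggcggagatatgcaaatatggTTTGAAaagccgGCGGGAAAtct
The E2f2 match, TTTGGCGC, began at base 40 counted from the start site as base 1. The E2f3 match, GCGGGAAA, began 11 bases before the start site, and a CHR match, TTTGAA, began 23 bases before it. A second window of each gene, for a start site further inside it, held no E2F match, and neither did the E2f1 window, whose start site lies 466 bases inside the gene as annotated.

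Over all 32851 RefSeq windows of 300 bases, from 250 before the start to 50 after it, 2.27% held 1 of the E2F spellings and 17.9% held the CHR letters. In the family 8 of 10 genes had a window, and 4 of these had an E2F match (E2f2, E2f3, E2f7 and Tfdp1). Counted by gene in the same way, 3.81% of the 14452 measured genes with a window had an E2F match. E2f4 and E2f5 had no entry, and the windows of E2f1, E2f8 and Tfdp2 did not reach the outermost start of the gene. Among the 14452 measured genes with a window, an E2F match was held by 11.5% of the 1350 genes called lower, by 2.08% of the 1154 called higher and by 3.10% of the 11948 not called. CHR letters were held by 20.7% of genes called lower, 13.7% of those called higher and 15.3% of those not called. These shares are a description, and the base composition of the windows was not matched.

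On the brightest probe set of each gene, the atypical repressors differed from the activators by more than the spread between arrays. The log2 change of E2f7 minus that of E2f1 was -1.94, and minus those of E2f2 and E2f3 it was -1.86 and -1.96. For E2f8 the same differences were -1.81, -1.74 and -1.84. No PD0332991 array overlapped a vehicle array in the within-array difference of any of these 6 pairs. The exact two-sided permutation p was 0.1 in each (0.1 after adjustment over 7 pairs), the smallest that 3 arrays against 3 allow. Any pair whose groups do not overlap gives this p, and the pairs were chosen after their values were seen. The p therefore adds no support to the differences. The seventh pair, E2f7 minus E2f8, was -0.12 (SD between arrays 0.05 in each group, exact two-sided permutation p = 0.1). On the probe sets of E2f1 and E2f2 that fell, the log2 fold changes of -0.72 and -1.40 stand nearer to those of E2f7 and E2f8.

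The canonical repressors E2f4 and E2f5 did not pass the test on any of 4 probe sets. E2f4, the main E2F of resting cells, read 209, 241 and 215 with PD0332991, against 246, 256 and 231 with vehicle on 1451480_at. The highest PD0332991 array lay among the vehicle arrays, and the interval of the log2 fold change was -0.30 to 0.04. E2f5, its close relative, read 735, 760 and 721 with PD0332991, against 747, 768 and 790 with vehicle on 1460207_s_at, overlapping values with an interval from -0.17 to 0.06. The other E2f5 probe sets had log2 fold changes of 0.07 for 1417444_at and 0.13 for 1447625_at, with intervals from -0.05 to 0.19 and from -0.11 to 0.38. For this pair of genes, changes as large as those of E2f7 or E2f8 lie outside every interval.

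E2f6 had 2 probe sets with estimates of opposite sign, neither past the threshold. On the brighter, 1448835_at, the intensity was 522, 569 and 539 with PD0332991, against 560, 588 and 605 with vehicle, which overlap (95% interval -0.23 to 0.03). On 1437914_at it was 80.8, 92.8 and 81.8 with PD0332991, against 76.0, 65.2 and 75.5 with vehicle. There every PD0332991 array was above every vehicle array, but the log2 fold change of 0.20 had a limma adjusted p = 0.155. The difference in change between these probe sets, 0.30, had a limma adjusted p = 0.0978, and passed the threshold with a pseudocount of 64 (adjusted p = 0.0385) and when dim probe sets were left out (adjusted p = 0.0307).

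The DP genes, which encode the dimer partners of E2F1 to E2F6, fell by small amounts on 2 of 5 probe sets. Tfdp1, the main partner in most cells, read 2558, 2584 and 2582 on 1423241_a_at with PD0332991, against 3197, 3345 and 3131 with vehicle. The PD0332991 arrays were nearly identical and all lower, with a log2 fold change of -0.32 (SE 0.04, 95% interval -0.43 to -0.21, limma adjusted p = 0.0078). The call held in 18 of 19 alternatives. Tfdp2 had 4 probe sets, of which 1443962_at fell. Its intensity was 134, 137 and 139 with PD0332991, against 158, 159 and 162 with vehicle, a log2 fold change of -0.20 (SE 0.04, limma adjusted p = 0.0246). The groups were separate but the call was lost with any 1 array left out (adjusted p = 0.0614 to 0.0796). The 3 others, 1435344_at, 1437174_at and 1445873_at, had log2 fold changes of -0.10, -0.20 and -0.06, and the second of these, with separate groups, had a limma adjusted p = 0.0583.
Tfdp1, chr8:13338501-13338750, plus strand: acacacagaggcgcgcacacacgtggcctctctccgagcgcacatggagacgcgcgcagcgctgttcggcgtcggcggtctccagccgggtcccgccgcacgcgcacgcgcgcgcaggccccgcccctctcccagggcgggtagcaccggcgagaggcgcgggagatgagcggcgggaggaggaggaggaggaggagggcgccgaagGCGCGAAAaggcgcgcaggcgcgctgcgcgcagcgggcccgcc
The Tfdp1 window is shown because it held the E2F match GCGCGAAA, the reverse complement of TTTCGCGC, 43 bases before the start site. A second Tfdp1 window overlaps it and shares that match, and 2 windows of Tfdp2 held none. The start sites of these Tfdp2 windows lie 62459 and 63002 bases inside the gene as annotated. The region around its outermost start was not analysed here.

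**Figure D3:**
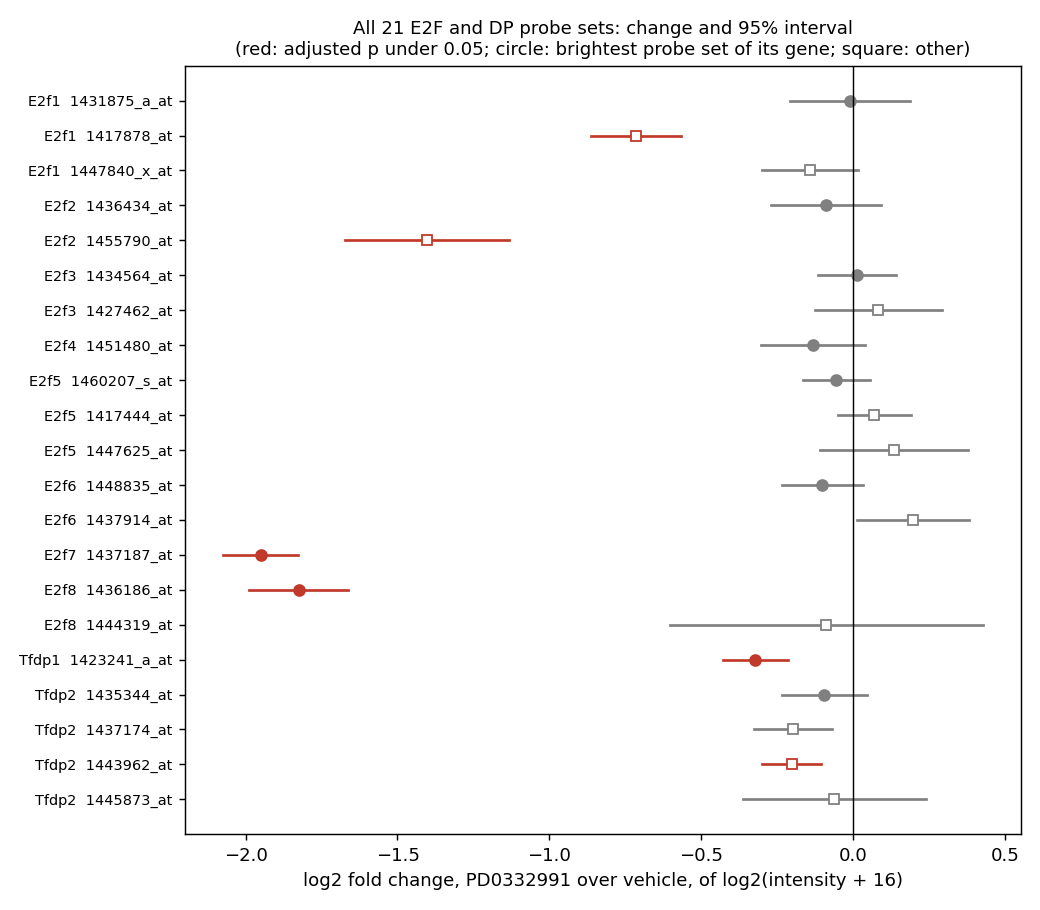
Log2 fold change, PD0332991 over vehicle, with its 95% interval for all 21 E2F and DP probe sets. The 6 past the adjusted p threshold (red) are all lower: 1 of E2f1, 1 of E2f2, E2f7, 1 of E2f8, Tfdp1 and 1 of Tfdp2.

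For the 3 family genes called by their brightest probe set (E2f7, E2f8 and Tfdp1), the genes with the nearest profile over the 6 arrays were found by the Euclidean distance between log2 values centred on each gene's mean, among 8992 brighter genes. Nearest to E2f7 were Depdc1a (distance 0.12, log2 fold change -1.94), Melk (0.12 and -1.97) and Cdkn3 (0.12 and -2.03). Nearest to E2f8 were Pclaf (0.07 and -1.81), Cdca3 (0.09 and -1.78) and Nusap1 (0.10 and -1.85). Nearest to Tfdp1 were Hnrnpul1 (0.02 and -0.31), Acot1 (0.02 and -0.32) and Ppp1r8 (0.04 and -0.32). Not every probe set of these genes was called lower: 2 of 3 were for Pclaf, 1 of 3 for Cdca3 and 1 of 2 for Ppp1r8. With 2 groups of 3 arrays, such likeness of profiles is mostly likeness in the size of the fall.

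The pocket proteins that bind E2Fs, and the DREAM and MuvB proteins that repress or activate cycle genes with them, fell or did not pass the test: 8 of 11 genes were lower and 0 higher by limma (9 and 0 at an unadjusted p), with a median log2 fold change of -0.35 against 0.00 for all genes. Rbl1 (p107), itself an E2F target, had 803 ± 19.6 with PD0332991 and 1609 ± 37.7 with vehicle (SD, n = 3 each), a log2 fold change of -0.99. Rb1 had 1892 ± 121 with PD0332991 and 2396 ± 86.1 with vehicle (log2 fold change -0.34, limma adjusted p = 0.0212), a call that ended without PD0332991 replicate 3 and without each vehicle array in turn (adjusted p up to 0.0706). Rbl2 (p130), the pocket protein of resting cells, had 1320 ± 61.0 with PD0332991 and 1416 ± 43.6 with vehicle and did not pass the test. Foxm1, a transcription factor of mitotic genes, had 67.6 ± 1.46 with PD0332991 and 232 ± 18.7 with vehicle. The count of lower genes in this list was 5 without PD0332991 replicate 2 and 4 without vehicle replicate 3. For comparison, 9.05% of all genes were called lower and 7.80% higher.

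Upstream of the pocket proteins, 3 of 12 cyclin and CDK genes rose and 6 fell, with a median log2 fold change of -0.20. Of all genes, 7.80% were called higher and 9.05% lower. Ccnd2, a D-type cyclin, had 1566 ± 83.8 with PD0332991 and 548 ± 46.5 with vehicle (SD, n = 3 each), and Cdk6, a target of the drug, rose by 0.36 on the log2 scale. After spike-in centring Ccnd2 was the gene still called higher, alone of the 3, and Cdk6 had a log2 fold change of 0.23. The cyclin E and cyclin A genes of this list were lower: Ccne1 by a log2 fold change of -0.66, Ccne2 by -1.38 and Ccna2 by -1.58. Ccna2, whose protein binds the activator E2Fs and ends their DNA binding, had 1323 ± 83.1 with PD0332991 and 3975 ± 148 with vehicle. Of 7 CDK inhibitor genes 1 rose and 3 fell, with a median log2 fold change of 0.04. The 3 not called were dim. With PD0332991 and with vehicle their means were 17.4 and 16.6 (Cdkn1c), 9.77 and 7.91 (Cdkn2a), and 7.92 and 4.98 (Cdkn2b). Cdkn1a (p21) had 1104 ± 72.4 with PD0332991 and 627 ± 28.1 with vehicle, while Cdkn2d (p19) had 312 ± 18.3 with PD0332991 and 898 ± 18.5 with vehicle and Cdkn2c (p18) had 652 ± 16.3 with PD0332991 and 1356 ± 64.5 with vehicle.

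All 43 measured G1/S target genes of E2F, which build the replication machinery and supply nucleotides, were lower, and 0 were higher also at an unadjusted p. Their median log2 fold change was -1.02 (range -1.76 to -0.48), against 0.00 for all genes. The 43 were also called lower in each fit that left out 1 array, and 37 to 43 were lower across all 21 alternatives. By comparison, 9.05% of all genes were called lower. Of the 98 probe sets of these genes 84 were lower and 0 higher. Dscc1, of the clamp loader for sister chromatid cohesion, had 213 ± 3.23 with PD0332991 and 621 ± 6.74 with vehicle (SD, n = 3 each), and Clspn, a replication checkpoint adaptor, had 205 ± 3.67 with PD0332991 and 616 ± 16 with vehicle. The lowest value in this list was that of Uhrf1, which maintains DNA methylation after replication, at -1.76 (95% interval -1.91 to -1.61), an interval that overlaps that of E2f8. By their brightest probe set, the 8 family genes other than E2f7 and E2f8 lay above the list's range. The probe sets of E2f1 and E2f2 that fell, at -0.72 and -1.40, lay inside it.

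Of 11 apoptosis genes known as E2F1 targets, 1 rose and 1 fell, with a median log2 fold change of 0.00. These 2 calls of 11 are near the 16.8% of all genes called. Trp53inp1, which promotes p53-dependent death, had 1952 ± 55.1 with PD0332991 and 1413 ± 17.9 with vehicle (SD, n = 3 each), and was no longer called after spike-in centring (log2 fold change 0.33). Bcl2l11 (BIM) had 736 ± 6.58 with PD0332991 and 879 ± 32.6 with vehicle (limma adjusted p = 0.0194), a call that ended without any 1 of the arrays except vehicle replicate 1 (adjusted p up to 0.0658). Of 13 partners of E2F6 in its polycomb complex 1 rose and 2 fell, with a median log2 fold change of -0.14. These 3 calls of 13 are also not far from the 16.8% of all genes, and the count of lower genes was 7 with a pseudocount of 64. Yaf2, a component of that complex, rose by 0.29 on the log2 scale, a call lost after spike-in centring (limma adjusted p = 0.429). Hdac1, a histone deacetylase, fell by 0.26 on the log2 scale, and after spike-in centring its log2 fold change was -0.39 with a limma adjusted p = 0.0619. Cbx3, a heterochromatin protein, had 51.2 ± 3.55 with PD0332991 and 87.1 ± 6.49 with vehicle on its single dim probe set. Of 5 germline genes that E2F6 keeps silent, 0 were called in either direction by limma (1 higher and 0 lower at an unadjusted p). These were dim, with Tuba3b at 32.5 ± 7.89 with PD0332991 and 19.8 ± 6.24 with vehicle and Slc25a31 at 3.27 ± 3.18 with PD0332991 and 8.43 ± 5.46 with vehicle.

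Of 12 genes for ubiquitin-dependent turnover of E2F proteins, 6 fell and 0 rose (7 and 1 at an unadjusted p). Their median log2 fold change was -0.24. Among all genes 9.05% were called lower and 7.80% higher. Ccnf, cyclin F, which targets E2F proteins for destruction, had 115 ± 8.03 with PD0332991 and 354 ± 21.5 with vehicle (SD, n = 3 each). Fbxo5 (EMI1), an inhibitor of the anaphase-promoting complex and an E2F target, had 505 ± 34.0 with PD0332991 and 1660 ± 9.56 with vehicle, a log2 fold change of -1.69. Protein levels of the E2Fs were not measured.

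**Figure D4:**
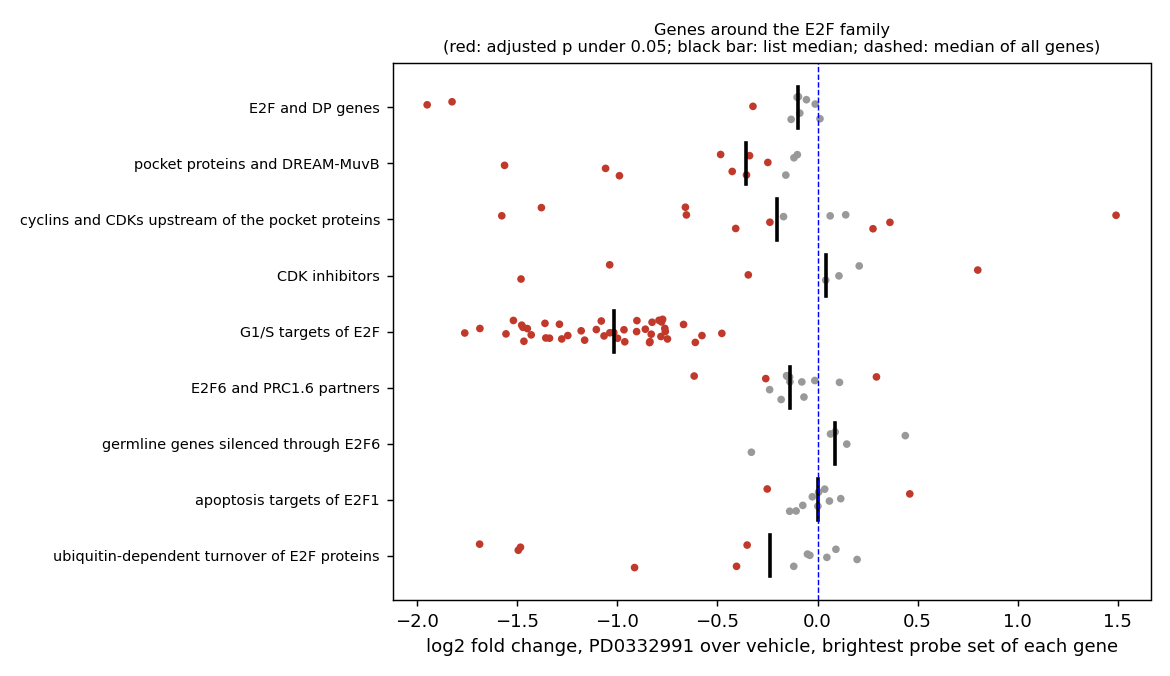
Log2 fold change, PD0332991 over vehicle, of the brightest probe set of each gene in the E2F and DP family and in 8 lists of related genes, with list medians (black bars) and the median of all genes (dashed). All 43 G1/S targets are lower. The medians of the family (-0.10), the E2F6 partners (-0.14) and the apoptosis targets (0.00) lie nearer to 0. So do those of the other lists, from -0.35 (pocket and MuvB genes) to 0.09 (germline genes). Called higher and lower were 0 and 3 of 10 family genes, 1 and 2 of 13 E2F6 partners, and 1 and 1 of 11 apoptosis targets.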

How the data were processed

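Total RNA was purified, biotin-labelled and hybridized to Affymetrix arrays, per the labels' protocols. The values are the authors' deposited linear probe-set intensity table, 1 column for each of 6 samples, mapped by title. The summarisation and scaling are not given in the sources used here, and no further normalization was applied. The 64 Affymetrix control probe sets were removed. Of the remaining 45037, 34945 had 1 gene symbol, 932 several and 9160 none in the platform annotation.

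Values were transformed to log2(intensity + 16), and PD0332991 was compared with vehicle with a two-sided test in limma 3.58.1 (lmFit, then eBayes; R 4.3.3), adjusted by Benjamini-Hochberg over all 45037 probe sets, with a threshold of 0.05 and no block or filter. A gene was represented by its brightest probe set, and the other probe sets were compared with it by the same fit on within-array differences. For some named list genes only part of the probe sets were called: Foxm1 (3 of 4 lower), Rbl1 (3 of 4), Rb1 (1 of 2), Bcl2l11 (3 of 5) and Cdk6 (2 of 3 higher). The procedure was tested on simulated data. Promoter sequences are RefSeq's (GRCm38.p6). Tables and plots used Python 3.11.15, pandas 2.3.3 and matplotlib 3.10.9.

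The members, the gene lists and the tests were chosen with earlier results of these data known. Named genes were every member, 6 pocket protein and cyclin genes (Rb1, Rbl1, Rbl2, Ccne1, Ccne2 and Ccna2), per list the called genes with the smallest p (at most 2 in each direction, or the 2 smallest where none was called), and the 3 nearest profiles of 3 members. The markers named, Uhrf1 and the exact tests between members were chosen after their values were seen. List genes with no single-symbol probe set were not analysed here. Same-numbered arrays of the 2 groups had deviations correlated by -0.05 to 0.04, so the numbers were not treated as pairs.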

Additional observations from a re-analysis of the deposited data

How the results depend on the processing

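The falls of E2f7, of E2f8 on its bright probe set, of E2f1 on 1417878_at and of E2f2 on 1455790_at passed the threshold in every alternative run on them, and no called change reversed. Across the alternatives, 4 to 7 family probe sets were lower and 0 higher. Array-wide counts are limited by 3 arrays a group: 6391 probe sets were called (2701 higher, 3690 lower), and leaving out 1 array gave 3439 to 3753 (1305 to 1560 higher, 2013 to 2240 lower). An adjusted p threshold of 0.01 gave 2340 (842 and 1498), leaving out _a_at, _s_at and _x_at probe sets 4127 (1682 and 2445), and the filter on dim probe sets 4074 higher. Higher calls made up 42.3% of all, but 51.9% after quantile normalization, 51.5% after median centring and 11.2% after spike-in centring (379 of 3379), or 21.7% with that centring and without vehicle replicate 1, an alternative chosen after seeing the data (2185 calls, 473 higher and 1712 lower).

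With the replicate number as a block there were 2305 calls (827 higher, 1478 lower), 4 family probe sets lower (Tfdp1 at adjusted p = 0.0534 and Tfdp2 1443962_at at 0.0925 were lost) and 0 differing pairs in the family or on the array. The log2 fold changes were the same with and without the block (Tfdp1 -0.32). Differing pairs, 551 on the array and 3 in the family, were 57 and 1 with a pseudocount of 1, 2011 on the array with one of 64, 1107 with the dim filter, 347 without the _a_at, _s_at and _x_at probe sets, 34 and 0 at the 0.01 threshold, and 14 to 55 and 0 to 1 with 1 array left out. Averaging the probe sets of each gene gave 5 lower family genes.

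For the lists, lower pocket and MuvB genes (8) were 4 with the block and at the 0.01 threshold, 5 with spike-in centring without vehicle replicate 1, and 4 to 8 with 1 array left out. Higher cyclin and CDK genes (3) were 1 under both forms of spike-in centring. E2F6 partners (1 higher, 2 lower) were 0 and 1 with the block, at 0.01 and under both forms of spike-in centring. Lower E2F6 partners were 7 with a pseudocount of 64, the dim filter or eBayes with trend, and 4 with 1 probe set a gene tested or with their mean, and 0 were higher without the _a_at, _s_at and _x_at probe sets. Apoptosis genes (1 and 1) had 0 lower with the block and at 0.01, 0 to 1 lower with 1 array left out, 0 in both directions under both forms of spike-in centring, and 2 lower with a pseudocount of 64, the dim filter or eBayes with trend. Turnover genes had 1 higher with eBayes with trend. The cause of these shifts was not tested.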
